A study of Mus musculus with 24 samples.

Results

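The genes described here are 8 genes carried by the lymphocytes that lie between the epithelial cells of the intestine: Klrd1, Gzma, Gzmb, Cd3e, Cd3g, Cd8a, Itgae and Cd7. They were taken as a list of symbols, by no threshold on the values, but with earlier results of these data known. Their counts beside the shares of all genes therefore describe the list and do not test it. All 8 of the 8 had a probe set among the 15267 genes measured. The arrays hold RNA from the intestines of Amacr-/- mice and of wild-type mice. Amacr, alpha-methylacyl-CoA racemase, is a peroxisomal enzyme used in making bile acids and in breaking down branched fatty acids. The intestine of each mouse had been cut into 4 equal lengths, numbered 1 to 4, and the layer scraped off each length was hybridised to a one-colour array. Per the labels, all groups came from male C57BL/6 mice aged 3 to 3.5 months, and each held 3 biological replicates: knockout segments 1, 2, 3 and 4, and wild-type segments 1, 2, 3 and 4.

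Intraepithelial lymphocytes are T cells that stay in the lining of the gut instead of circulating. Most carry the T cell receptor with its CD3 chains, many carry CD8 as a pair of alpha chains, and they are held in place by the integrin chain CD103, which binds E-cadherin on the epithelial cell. They store granzymes, proteases that are released into target cells, and they bear receptors otherwise known from natural killer cells. In mice they depend on interleukin 15 presented by the epithelium, and their number is known to be higher in the proximal than in the distal small intestine.

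The layer is labelled endothelial. Of 10 markers of vessel endothelium, 9 had a median over the 24 arrays below the median gene of an array, which lay at 6.11 to 6.2 (log2), and the 10 medians ran from 3.73 for Emcn to 6.61 for Kdr. Of 10 enterocyte markers, all 10 had a median above it, from 7.79 for Cdx2 to 14.0 for Lgals4. Probe sets of different genes differ in brightness, so these levels describe the arrays and do not measure the cell types. Amacr was lower in the knockout arrays of every segment, with knockout minus wild-type differences of -3.08, -2.84, -1.95 and -2.08 log2 in segments 1 to 4 (limma with Benjamini-Hochberg adjustment, adjusted p 1.26e-08 to 1.85e-05). In such a mixed layer, fewer lymphocytes and less RNA per lymphocyte cannot be told apart. The number of arrays, 3 a group, limits the precision of every value.

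All 8 genes had their highest mean in segment 1 and clearly lower means in segments 3 and 4, in both genotypes, and their log2 values moved together from array to array. The labels do not say from which end of the intestine the segments were numbered. Between segments 4 and 1 they differed by -2.28 to -0.98 log2 in knockout mice and by -1.76 to -0.69 log2 in wild-type mice (segment 4 minus segment 1). No difference between knockout and wild-type passed the test for any of the 8.

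Promoter sequence was at hand for 5 of the 8 genes (Cd3e, Cd3g, Cd8a, Gzma and Gzmb), from RefSeq on build GRCm38.p6. Those of the 2 granzyme genes are shown because their values were the most alike of all pairs although they lie on different chromosomes, Gzma at chr13:113100932-113101231 and Gzmb at chr14:56262285-56262584, both on the minus strand. Each window runs 5′ to 3′ on the strand of the gene, from 250 bases before the start of the gene to 50 after it. The capitals mark matches on either strand to TGTGGT, the core bound by RUNX factors, and to TCACAC, the core bound by T-box factors such as T-bet.
Gzma: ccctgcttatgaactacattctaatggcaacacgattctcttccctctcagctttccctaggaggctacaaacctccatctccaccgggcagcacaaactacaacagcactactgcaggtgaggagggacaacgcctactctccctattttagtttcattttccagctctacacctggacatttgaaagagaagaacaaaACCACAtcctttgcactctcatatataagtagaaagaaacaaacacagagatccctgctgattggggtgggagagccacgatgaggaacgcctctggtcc
Gzmb: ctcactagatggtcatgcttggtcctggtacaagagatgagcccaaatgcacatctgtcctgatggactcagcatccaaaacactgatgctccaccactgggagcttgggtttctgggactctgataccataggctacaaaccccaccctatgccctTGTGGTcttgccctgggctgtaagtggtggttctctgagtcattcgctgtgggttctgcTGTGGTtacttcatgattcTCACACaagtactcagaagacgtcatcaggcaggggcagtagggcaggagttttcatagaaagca
Gzma holds 1 RUNX core, read on the opposite strand as ACCACA and beginning 50 bases before the start of the gene. Gzmb holds 2 RUNX cores, which begin 93 and 34 bases before the start, and 1 T-box core that begins 15 bases before it. The third motif looked for, GGAAGT, the core bound by ETS factors, was found in the window of Cd3e only among the 5, 18 bases before the start and as its reverse complement ACTTCC. No match overlapped another. Such cores are common: of 32851 promoter windows of the same length, 16.8% held the RUNX core, 14.5% the T-box core and 23.8% the ETS core. A match describes letters in the window and does not show that a factor binds there.

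Klrd1 encodes CD94, a lectin-like chain that pairs with some NKG2 receptors on natural killer cells and on intraepithelial T cells. In knockout mice its log2 values were 9.46, 9.84 and 9.57 in segment 1, 8.84, 8.35 and 9.04 in segment 2, 7.42, 7.78 and 8.45 in segment 3, and 7.23, 7.56 and 7.23 in segment 4. In wild-type mice they were 8.82, 9.16 and 9.06 in segment 1, 8.56, 8.95 and 8.39 in segment 2, 7.86, 8.13 and 7.60 in segment 3, and 7.40, 7.36 and 6.99 in segment 4. The arrays of segment 4 all lay below those of segments 1 and 2 in both genotypes, and in wild-type mice also below those of segment 3. Of the 8 genes it had the largest change between segments 4 and 1: Klrd1 fell by 2.28 log2 in knockout mice, 4.87 times lower (SE 0.23, adjusted p 2.12e-07), and by 1.76 log2 in wild-type mice, 3.39 times lower (SE 0.23, adjusted p 7.29e-06; limma with Benjamini-Hochberg adjustment).

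Gzma and Gzmb encode granzymes A and B, serine proteases of cytotoxic granules, of which granzyme B triggers caspases in the target cell. Gzma in knockout mice was 12.03, 12.19 and 11.92 in segment 1, 11.43, 11.08 and 11.44 in segment 2, 10.22, 10.66 and 11.74 in segment 3, and 9.93, 11 and 10.17 in segment 4 (log2). Gzma in wild-type mice was 11.91, 11.97 and 11.86 in segment 1, 11.89, 11.75 and 11.28 in segment 2, 11.45, 10.99 and 10.46 in segment 3, and 11.16, 10.90 and 10.29 in segment 4. The arrays of segment 1 were tightly grouped, and those of segments 3 and 4 spread over more than 0.8 log2 and overlapped each other in both genotypes.

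Gzmb in knockout mice was 11.05, 11.09 and 10.84 in segment 1, 10.49, 9.89 and 10.30 in segment 2, 8.73, 9.20 and 10.39 in segment 3, and 8.56, 9.98 and 8.77 in segment 4. Gzmb in wild-type mice was 11.19, 11.07 and 10.85 in segment 1, 11.21, 10.87 and 10.36 in segment 2, 10.37, 9.90 and 9.02 in segment 3, and 10.15, 9.78 and 8.80 in segment 4. The same arrays stood high and low as for Gzma: replicate 3 of knockout segment 3 and replicate 2 of knockout segment 4 were the highest of their groups, and replicate 3 of wild-type segments 2, 3 and 4 the lowest. Between segments 4 and 1, Gzma fell by 1.68 log2 in knockout mice (SE 0.33, adjusted p 0.000552) and by 1.13 log2 in wild-type mice (SE 0.33, adjusted p 0.0164). Gzmb fell by 1.89 log2 in knockout mice (SE 0.43, adjusted p 0.00191) and by 1.46 log2 in wild-type mice (SE 0.43, adjusted p 0.0167). These are limma values with Benjamini-Hochberg adjustment.

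Cd3e and Cd3g encode signalling chains of the T cell receptor, and both lie on chromosome 9 of the mouse. Cd3e in knockout mice was 8.62, 9.21 and 8.62 in segment 1, 8.22, 7.95 and 8.14 in segment 2, 7.58, 7.79 and 8.25 in segment 3, and 7.64, 8.01 and 7.85 in segment 4. The wild-type values of Cd3e were 8.67, 8.54 and 8.67 in segment 1, 8.74, 8.28 and 8.08 in segment 2, 8.25, 8.06 and 7.74 in segment 3, and 7.93, 8.05 and 7.83 in segment 4. In knockout mice the arrays of segment 1 were the high ones, while in wild-type mice replicate 1 of segment 2 lay above all 3 of segment 1; the arrays of segments 3 and 4 overlapped in both genotypes. Its fall between segments 4 and 1 was the smallest of the 8, 0.98 log2 in knockout mice (SE 0.19, adjusted p 0.000463, limma) and 0.69 log2 in wild-type mice (SE 0.19, adjusted p 0.0109, limma).

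Cd3g in knockout mice was 9.10, 9.28 and 8.93 in segment 1, 8.59, 8 and 8.56 in segment 2, 7.26, 7.71 and 9.05 in segment 3, and 7.53, 8.15 and 7.67 in segment 4. The wild-type values of Cd3g were 8.94, 9.15 and 9.17 in segment 1, 9.10, 8.74 and 8.36 in segment 2, 8.62, 7.97 and 7.51 in segment 3, and 8.37, 8.10 and 7.75 in segment 4. Replicate 3 of knockout segment 3 lay within the range of segment 1, the only array of segments 2 to 4 in knockout mice to do so for any of the 8 genes. Cd3g fell by 1.32 log2 in knockout mice (SE 0.34, adjusted p 0.0057) and by 1.01 log2 in wild-type mice (SE 0.34, adjusted p 0.037) between segments 4 and 1 (limma, Benjamini-Hochberg).

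Cd8a encodes the alpha chain of CD8, which forms the alpha pair typical of intraepithelial lymphocytes. In knockout mice it was 7.86, 8.11 and 7.80 in segment 1, 7.11, 6.80 and 7.29 in segment 2, 6.22, 6.63 and 7.41 in segment 3, and 6.09, 6.73 and 6.54 in segment 4. Wild-type values were 7.88, 7.78 and 7.61 in segment 1, 7.76, 7.44 and 6.90 in segment 2, 7.12, 6.75 and 6.37 in segment 3, and 7.02, 6.87 and 6.43 in segment 4. Segments 3 and 4 covered nearly the same range in wild-type mice. Cd8a fell by 1.47 log2 in knockout mice (SE 0.27, adjusted p 0.000271) and by 0.98 log2 in wild-type mice (SE 0.27, adjusted p 0.0104) between segments 4 and 1 (limma, Benjamini-Hochberg).

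Itgae encodes the integrin chain alpha E, CD103, the partner of E-cadherin. In knockout mice it was 8.87, 9.14 and 9.10 in segment 1, 8.30, 8.04 and 8.36 in segment 2, 7.52, 7.69 and 8.72 in segment 3, and 7.57, 7.98 and 7.78 in segment 4. For Itgae, wild-type values were 9.20, 8.89 and 9.08 in segment 1, 8.85, 8.46 and 8.15 in segment 2, 8.49, 8.04 and 7.51 in segment 3, and 8.07, 8.15 and 7.86 in segment 4. It was the only one of the 8 whose wild-type arrays of segment 2 all lay below those of segment 1. Itgae fell by 1.26 log2 in knockout mice (SE 0.26, adjusted p 0.000794) and by 1.03 log2 in wild-type mice (SE 0.26, adjusted p 0.00563) between segments 4 and 1 (limma, Benjamini-Hochberg).

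Cd7 encodes a surface receptor of the immunoglobulin family found on T cells and natural killer cells. In knockout mice it was 9.13, 9.30 and 9.14 in segment 1, 8.46, 8.15 and 8.51 in segment 2, 7.46, 7.90 and 8.77 in segment 3, and 7.22, 8.02 and 7.51 in segment 4. Wild-type values of Cd7 were 9.15, 8.94 and 8.72 in segment 1, 8.89, 8.67 and 8.14 in segment 2, 8.21, 8.10 and 7.44 in segment 3, and 8.12, 7.94 and 7.33 in segment 4. The arrays of segment 2 overlapped those of segment 1 in wild-type mice and lay below them in knockout mice. Cd7 fell by 1.61 log2 in knockout mice (SE 0.29, adjusted p 0.000261) and by 1.14 log2 in wild-type mice (SE 0.29, adjusted p 0.00673) between segments 4 and 1 (limma, Benjamini-Hochberg).

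**Figure D1:**
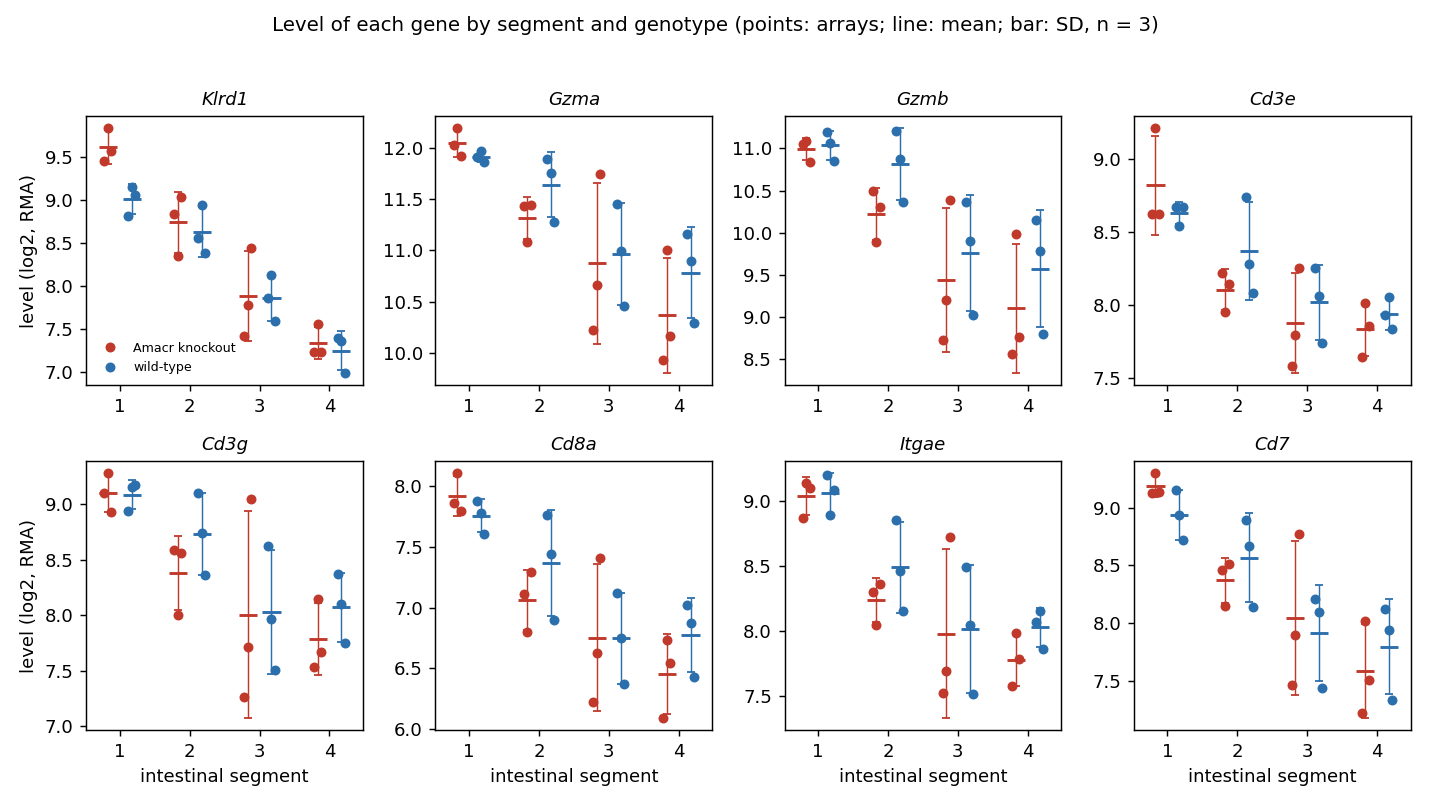
Log2 values of the 8 genes by segment, 1 panel a gene, with knockout left of wild-type in each segment; points are arrays, bars the mean and SD of 3 arrays. In every panel the arrays of segment 4 lie below those of segment 1 in both genotypes, as for Klrd1 with means of 7.34 against 9.62 in knockout mice and 7.25 against 9.01 in wild-type mice.

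Between the ends of the intestine, 8 of the 8 genes passed the test as lower in segment 4 than in segment 1 in knockout mice and 8 of the 8 in wild-type mice. Of all genes, 30.3% passed in knockout mice, 14.9% as lower, and 23.6% in wild-type mice, 13.6% as lower. The median difference of the 8 was -1.54 log2 in knockout mice and -1.08 log2 in wild-type mice, where the median of all genes was -0.01 and 0.03 log2. Every array of segment 4 lay below every array of segment 1 for 8 of the 8 genes in both genotypes, and for 21.3% of all genes in knockout mice and 19.4% in wild-type mice. All 8 calls in knockout mice remained when any 1 of the 6 arrays was left out. In wild-type mice the call ended for Gzma, Gzmb and Cd8a without replicate 3 of segment 4 (adjusted p 0.0872, 0.0988 and 0.0563, limma). For Cd3g it ended without any 1 of 5 arrays, replicates 2 and 3 of segment 4 and the 3 replicates of segment 1 (adjusted p 0.0527 to 0.131, limma).

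The order of the mean levels was segment 1, 2, 3, 4 from high to low for 8 of the 8 genes in knockout mice and for 5 of the 8 in wild-type mice. In the other 3 genes of wild-type mice, Cd3g, Cd8a and Itgae, segments 4 and 3 had nearly equal means, 8.07 and 8.03 for Cd3g, 6.77 and 6.75 for Cd8a, and 8.03 and 8.01 for Itgae. The median differences of the 8 genes at the steps from segment 1 to 2, 2 to 3 and 3 to 4 were -0.79, -0.35 and -0.32 log2 in knockout mice, and -0.36, -0.66 and -0.10 log2 in wild-type mice. Single arrays decided the later steps: without replicate 3 of knockout segment 3 the last 2 medians were -0.79 and 0.08 log2, and without replicate 3 of wild-type segment 4 the last was 0.11 log2. Whether the shape of the fall differs between the genotypes was tested by the interaction given further on, and it passed for 0 of the 8.

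In segment 2 of knockout mice, every array lay below every array of segment 1 for 8 of the 8 genes, against 8.49% of all genes, with differences of -0.88 to -0.71 log2. Only Klrd1 (-0.88 log2, adjusted p 0.0338) and Cd3e (-0.71 log2, adjusted p 0.0407) passed limma's test there, which 3.62% of all genes passed. The other 6 had adjusted p between 0.0837 and 0.409. Klrd1 lost the call without replicate 1 or 2 of segment 2 or replicate 2 or 3 of segment 1 (adjusted p 0.067 to 0.176, limma), and Cd3e without any 1 of these or replicate 3 of segment 2 (adjusted p 0.0501 to 0.254, limma). In wild-type mice the same step gave differences of -0.57 to -0.22 log2, and 0 of the 8 passed (adjusted p 0.414 to 0.887, limma; 0.884% of all genes passed). Only Itgae passed at an unadjusted p under 0.05 there, and only Itgae had every array of segment 2 below every array of segment 1, as did 8.99% of all genes.

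In segment 3 against segment 2, Klrd1 alone passed in knockout mice (-0.86 log2, adjusted p 0.0273, limma; 5.62% of all genes passed). It lost the call without replicate 1 or 2 of segment 3 or replicate 1 or 3 of segment 2 (adjusted p 0.0942 to 0.157, limma). The groups overlapped for 8 of the 8 in knockout mice, where 11.6% of all genes had every array of segment 3 lower, and replicate 3 of segment 3 lay within or above the range of segment 2 for each of the 8. In wild-type mice 0 of the 8 passed limma's test (-1.05 to -0.35 log2, adjusted p 0.0869 to 0.428; 2.06% of all genes passed), with 4 of them, Klrd1, Gzmb, Cd8a and Cd7, at an unadjusted p under 0.05. Klrd1 was the only gene of the 8 with every wild-type array of segment 3 below every array of segment 2, as were 8.35% of all genes.

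In segment 4 against segment 3, 0 of the 8 passed in either genotype. The differences ran from -0.54 to -0.04 log2 in knockout mice (adjusted p 0.251 to 0.969, limma; 3.54% of all genes passed) and from -0.61 to 0.04 log2 in wild-type mice (adjusted p 0.141 to 0.989, limma; 4.5% of all genes passed). Klrd1 was the only one at an unadjusted p under 0.05 in each genotype, and in wild-type mice the only one without overlap, as were 11.9% of all genes in the same direction.

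Over 2 lengths of intestine the falls were larger. In segment 3 against segment 1, 8 of the 8 passed as lower in knockout mice, from -1.74 log2 for Klrd1 to -0.94 log2 for Cd3e (17.6% of all genes passed, 9.54% as lower), and 7 of the 8 in wild-type mice, from -1.27 log2 for Gzmb to -0.61 log2 for Cd3e (15.9% of all genes passed, 8.89% as lower). Gzma missed the threshold in wild-type mice, at -0.95 log2 (adjusted p 0.0561, limma). In knockout mice, leaving out 1 array ended the call of Cd3g (replicates 1 and 2 of segment 3 and of segment 1, adjusted p 0.0677 to 0.184), Gzma (replicates 1 and 2 of segment 3 and replicate 2 of segment 1, 0.0604 to 0.105), Gzmb (replicates 1 and 2 of segment 3, 0.0574 to 0.0874) and Cd7 (replicate 1 of segment 3, 0.0611). The difference of Cd3g moved to -0.72 log2 without replicate 1 of segment 3. In wild-type mice it ended the call of Cd3e, Cd3g and Gzmb (replicates 2 and 3 of segment 3 and all 3 of segment 1, adjusted p 0.0577 to 0.171), Cd7 (replicate 3 of segment 3 and replicates 1 and 2 of segment 1, 0.0557 to 0.0875) and Cd8a (replicate 3 of segment 3, 0.0585), all by limma.

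In segment 4 against segment 2, 2 of the 8 passed in each genotype, where 21.4% of all genes passed in knockout mice and 19% in wild-type mice. They were Klrd1 (-1.40 log2) and Gzma (-0.95 log2, adjusted p 0.0449) in knockout mice, and Klrd1 (-1.38 log2) and Gzmb (-1.24 log2, adjusted p 0.0479) in wild-type mice. Gzma lost the call without replicate 1 or 3 of segment 4 or of segment 2 (adjusted p 0.121 to 0.195), and Gzmb without replicate 2 or 3 of segment 4 or replicate 1 or 2 of segment 2 (adjusted p 0.0802 to 0.227; limma). The 12 segment comparisons share arrays, so their counts are not independent of each other.

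**Figure D2:**
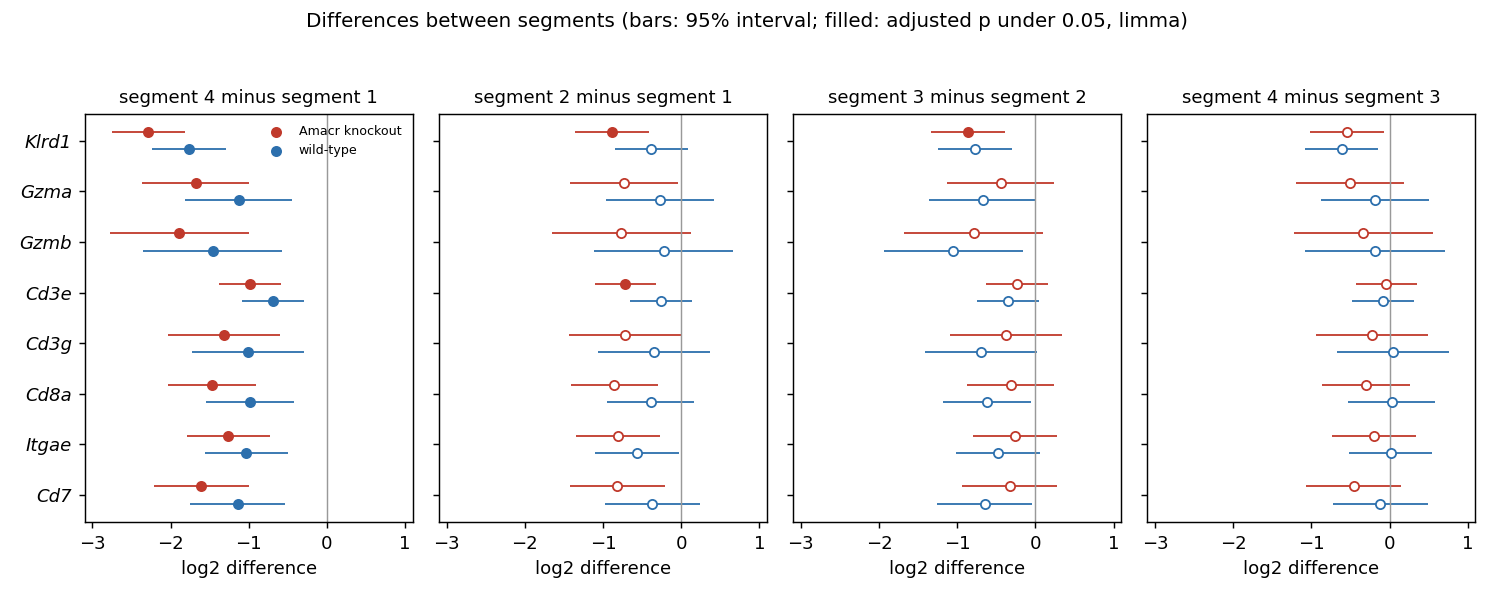
Log2 differences of the 8 genes between segments, later minus earlier, in 4 panels (segment 4 minus 1, then the 3 steps between neighbours), with knockout above wild-type; bars are 95% intervals and filled points have an adjusted p under 0.05 (limma). All points of segment 4 minus 1 are filled, and of the steps only Klrd1 and Cd3e in segment 2 minus 1 and Klrd1 in segment 3 minus 2 are, all in knockout mice.

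No gene of the 8 passed the test between knockout and wild-type mice. In segment 1 the differences ran from -0.04 log2 for Gzmb to 0.61 log2 for Klrd1, with a median of 0.15 log2, and 0 of the 8 passed, against 0.111% of all genes. The Klrd1 arrays of knockout segment 1 (9.46, 9.84 and 9.57) all lay above those of wild-type segment 1 (8.82, 9.16 and 9.06), as for 8.02% of all genes. The difference was 0.61 log2, 1.53 times higher in knockout mice (SE 0.23, 95% interval 0.14 to 1.08), with an adjusted p of 0.331 by limma. It was the only one of the 32 within-segment differences at an unadjusted p under 0.05.

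In segment 2, 7 of the 8 had lower means in knockout mice, all but Klrd1, with a median of -0.28 log2 and the lowest value for Gzmb (-0.59 log2, 95% interval -1.48 to 0.30). In segment 3 the differences lay around 0, with 5 lower and 3 higher and a median of -0.03 log2. In segment 4 again 7 of the 8 had lower means in knockout mice, all but Klrd1, with a median of -0.27 log2 and the lowest value for Gzmb (-0.47 log2, 95% interval -1.36 to 0.42). By limma, 0 of the 8 passed in each of segments 2, 3 and 4 (adjusted p 0.839 or more), where 0.0721%, 0.0262% and 0.0655% of all genes passed.

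Averaged over the 4 segments of each replicate number, Klrd1 had 8.40 in knockout mice and 8.19 in wild-type mice, a difference of 0.21 log2 (SE 0.12, adjusted p 0.795). The other 7 had differences between -0.36 log2 for Gzmb and -0.01 log2 for Cd7, with adjusted p of 0.833 or more; 0 of the 8 passed, against 0.0262% of all genes, and 0 had an unadjusted p under 0.05. These means assume that a replicate number marks 1 mouse, which the labels do not state. The interaction of genotype and segment passed for 0 of the 8 by limma's F test (adjusted p 0.894 to 0.979), with 0 at an unadjusted p under 0.05; of all genes 0% passed, and 907 had an unadjusted p under 0.05.

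**Figure D3:**
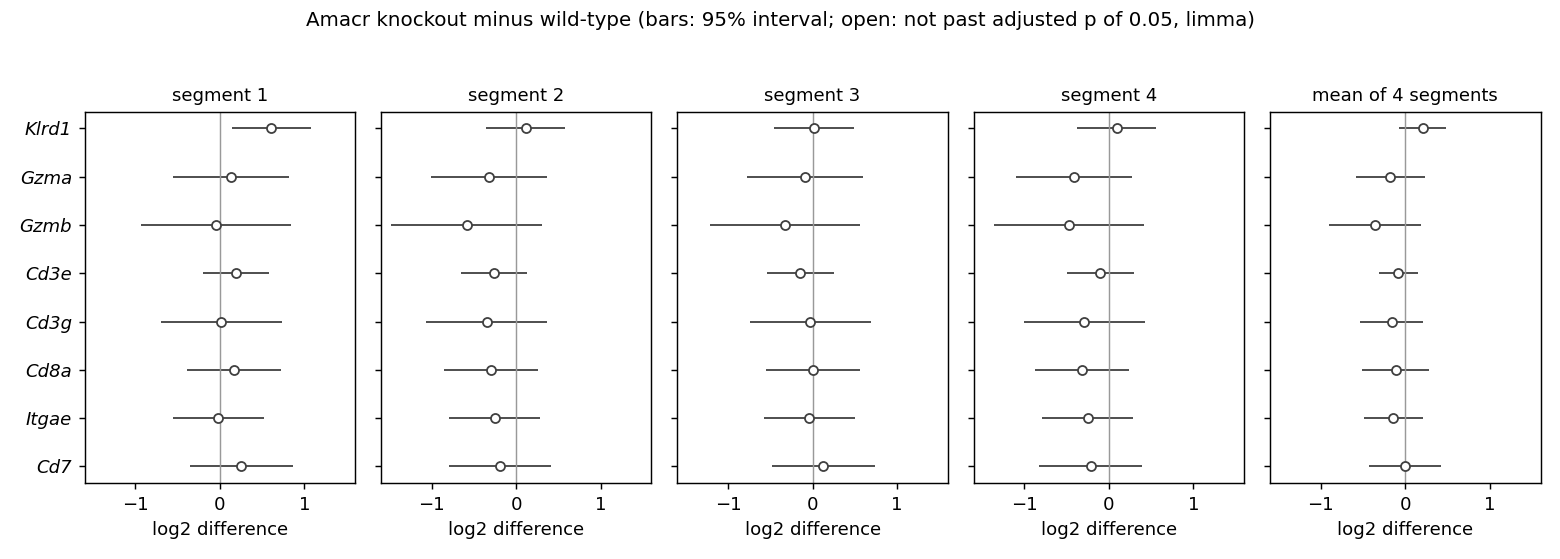
Log2 differences of the 8 genes between knockout and wild-type mice (knockout minus wild-type), in segments 1 to 4 and for the mean of the 4 segments; points are limma estimates and bars 95% intervals. All 40 points are open, since none had an adjusted p under 0.05, and the interval of Klrd1 in segment 1, 0.14 to 1.08, is the only one that leaves out 0.

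The values of the 8 genes varied together over the arrays. Over the 24 arrays, the 28 pairs of genes correlated at r of 0.836 to 0.984 with a median of 0.947, highest for Gzma with Gzmb. Once the mean of each group was taken off, r ran from 0.635 (Klrd1 with Cd3e) to 0.981 (Gzma with Gzmb) with a median of 0.872. The arrays share segments, and each array gives all 8 genes of 1 scraped sample, so r is given as a description.

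Single samples thus moved as a set. Replicate 3 of knockout segment 3 lay above the mean of its group for 8 of the 8 genes, by 0.74 log2 on average, and replicate 2 of knockout segment 4 by 0.40 log2, also for 8 of the 8. Replicate 3 of wild-type mice lay below the group mean for 8 of the 8 genes in segments 2, 3 and 4, by 0.37, 0.46 and 0.37 log2, and in segment 1 for 4 of the 8. The labels do not say whether these arrays share a mouse.

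Markers of other cells varied between the same arrays. Replicate 3 of knockout segment 3 also had the highest mean of fat cell markers, 2.55 log2 above the mean of all arrays, and a mean of B and plasma cell markers 1.09 log2 above it. Replicate 3 of wild-type segment 4 was the highest for B and plasma cell markers, at 1.28 log2. Replicate 3 of wild-type segment 2 had 1.62 log2 for fat and 2.29 log2 for smooth muscle markers. Their part in the spread of the 8 genes was not tested. Without the 5 arrays over 1 log2 in fat, smooth muscle or pancreas markers, and likewise without the 2 arrays over 1 log2 in B and plasma cell markers, the 8 genes still all passed between segments 4 and 1 in both genotypes. With only 1 of those 2 left out, replicate 3 of wild-type segment 4, the wild-type calls of Gzma, Gzmb, Cd8a and Cd3g ended, as given above.

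Markers of some other cells also differed between the ends of the intestine. The markers of B and plasma cells, 13 measured, had group means of 0.42 log2 in segment 4 and -0.42 log2 in segment 1 in knockout mice, relative to the mean of all arrays, and of 0.79 and -0.09 log2 in the same segments in wild-type mice. By limma 1 of these 13 rose and 0 fell in knockout mice, where 15.4% of all genes rose, and 3 rose and 0 fell in wild-type mice, where 10% of all genes rose. Enterocyte markers averaged 0.23 log2 in segment 4 and -0.28 log2 in segment 1 in knockout mice, and 0.15 and -0.17 log2 in wild-type mice; 7 of 10 rose in knockout mice, 5 of 10 in wild-type mice, and 0 fell. Of innate lymphoid and natural killer cell markers, Ncr1 lay between 4.15 and 4.68 and Klrb1c between 5.03 and 5.41 on all 24 arrays, and 0 of the 5 measured passed in either genotype. Markers of proliferating cells rose, 9 of 9 in knockout mice and 5 of 9 in wild-type mice. Of 9 markers of the exocrine pancreas, 1 fell in knockout mice and 3 fell in wild-type mice, beside 14.9% and 13.6% of all genes. Their mean stood high on 1 array of segment 1 in each genotype, at 1.504 log2 on replicate 3 of knockout mice and 3.02 log2 on replicate 1 of wild-type mice, while the other arrays of segment 1 lay between -0.13 and 0.07 log2 and those of segment 4 between -0.41 and -0.28 log2. Of 8 fat cell markers, 2 fell in each genotype, beside the same 14.9% and 13.6% of all genes. In knockout mice the counts of B and plasma cell markers and of pancreas markers were under the shares of all genes. Those counts are no result about these cells. The 3' minus 5' signal of the beta-actin control, a gauge of RNA integrity, was 0.49 in segment 4 and 0.75 in segment 1 of knockout mice, and 0.43 and 0.69 in wild-type mice (log2). That of the Gapdh control was 0.11 in segment 4 and 0.01 in segment 1 of knockout mice, and -0.05 and -0.01 in wild-type mice. The part of these in the falls was not tested.

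**Figure D4:**
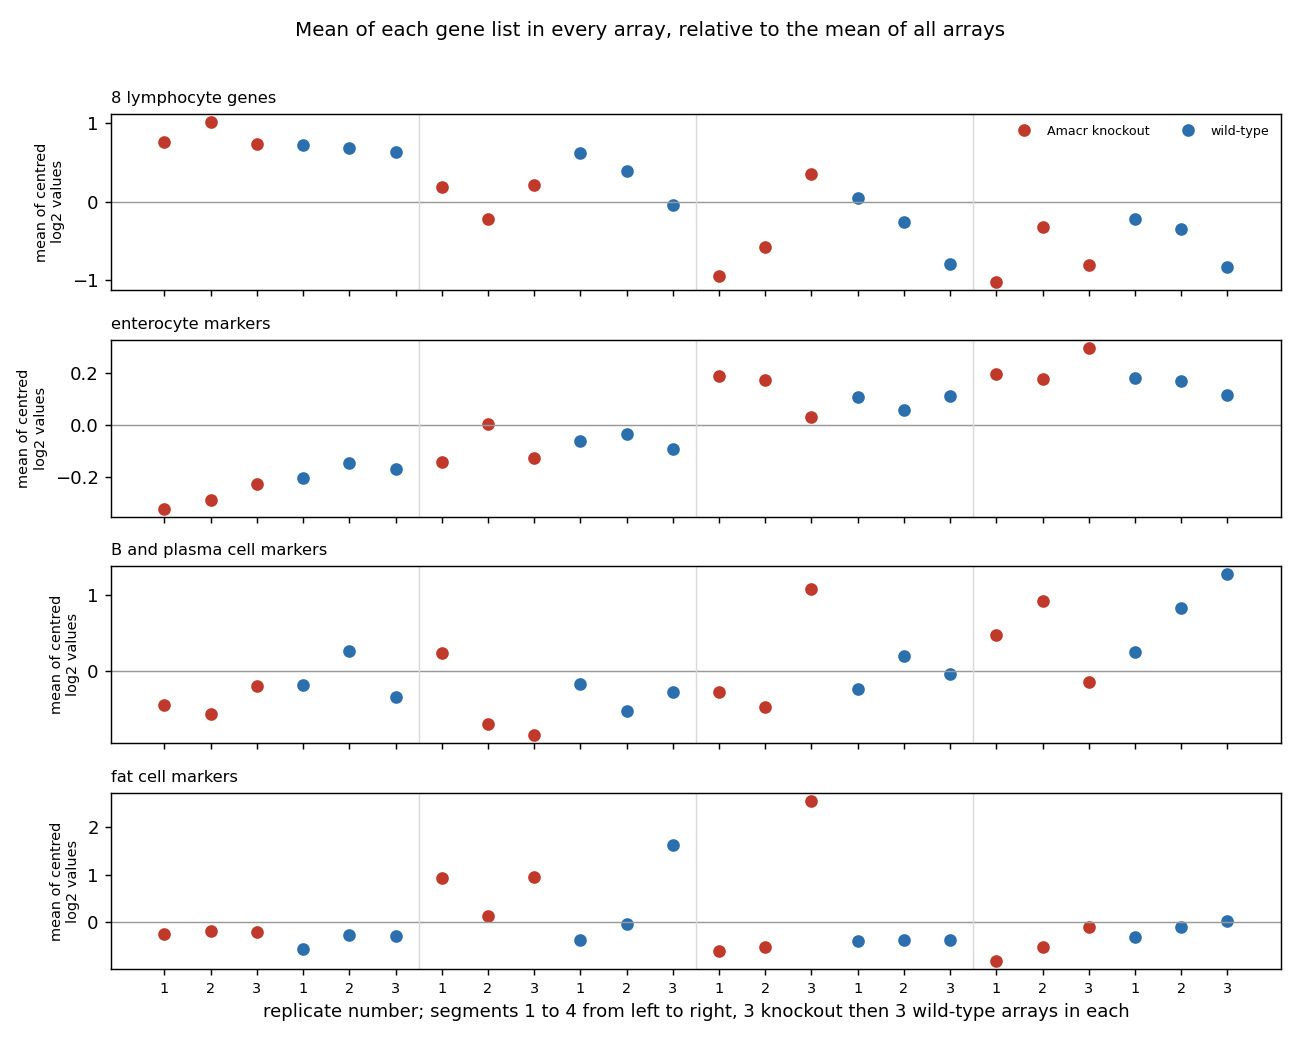
Mean log2 value of 4 gene sets on each of the 24 arrays, each gene centred on its mean over all arrays: the 8 lymphocyte genes and the markers of enterocytes, of B and plasma cells and of fat cells, by segment with knockout left of wild-type. The 8 genes lie highest in segment 1, where B and plasma cell and enterocyte markers do not, and replicate 3 of knockout segment 3 stands out at 2.55 for fat cell markers.

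The genes whose values were most like the mean of the 8 over the 24 arrays were Nkg7 (r 0.973), Ccl5 (0.970), Xdh (0.954), Cd244a (0.954), Ctsw (0.940), Usp18 (0.940), D5Ertd579e (0.928), Fasl (0.927), Pcx (0.926) and Cd3d (0.925), in that order of 15259 genes. With the group means taken off, r was 0.944 for Nkg7, 0.958 for Ccl5 and 0.926 for Cd3d, and between 0.725 and 0.932 for the other 7. Of these 10, 6 stand in the lists of lymphocyte genes given next. Xdh encodes xanthine dehydrogenase, Usp18 a protease that removes ISG15 from proteins, and Pcx pyruvate carboxylase.

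The counts of the lists that follow stand beside 14.9% of all genes that fell and 15.4% that rose between segments 4 and 1 in knockout mice, and 13.6% that fell and 10% that rose in wild-type mice.

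Among 13 genes of cytotoxic granules and effectors, 6 fell and 0 rose between segments 4 and 1 in knockout mice, and 5 fell and 0 rose in wild-type mice (14.9% and 13.6% of all genes fell). The largest falls were those of Ccl5, a chemokine stored by cytotoxic T cells, by 1.58 log2 in knockout mice (SE 0.40, adjusted p 0.00435) and by 1.35 log2 in wild-type mice (SE 0.40, adjusted p 0.0176). Nkg7, a granule membrane protein, fell by 1.45 log2 in knockout mice and by 1.11 log2 in wild-type mice, and the cathepsin Ctsw by 1.36 and 1.04 log2 in the same comparison. Gzmk, granzyme K, fell by 1.19 log2 in knockout mice and by 1.01 log2 in wild-type mice. Prf1, the pore-forming perforin, had -0.22 log2 in knockout mice (adjusted p 0.252) and -0.24 log2 in wild-type mice (adjusted p 0.246), with values of 5.48 to 6.22 on all 24 arrays. The median of the 13 was -0.33 log2 in knockout mice and -0.24 log2 in wild-type mice. Ccl5 lost its wild-type call without replicate 3 of segment 4 or replicate 1 of segment 1 (adjusted p 0.0809 and 0.051, limma).

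Of 15 receptors and adaptors of natural killer type, 8 fell and 0 rose in knockout mice, and 5 fell and 0 rose in wild-type mice (14.9% and 13.6% of all genes fell). Tyrobp, the signalling adaptor DAP12, fell by 1.14 log2 in knockout mice and by 0.89 log2 in wild-type mice, and Cd244a, the receptor 2B4, by 1.12 and 0.98 log2. Klre1, a lectin-like receptor encoded in the same gene family as Klrd1, fell by 1.11 log2 in knockout mice (adjusted p 1.39e-05) and by 0.61 log2 in wild-type mice (adjusted p 0.00618). Fcer1g, the common gamma chain of Fc receptors, fell by 0.89 and 0.73 log2, and Cd96 by 0.80 log2 in knockout mice and by 0.71 log2 in wild-type mice. The medians of the 15 were -0.50 log2 in knockout mice and -0.24 log2 in wild-type mice. Over the 24 arrays, r of the 15 with the mean of the 8 ran from -0.48 for Sh2d1a to 0.95 for Cd244a. Klrc1, which encodes an NKG2 receptor that pairs with CD94, had r of -0.37. Klrk1, whose NKG2 receptor does not pair with CD94, had r of -0.39. With the group means taken off, r was 0.34 for Tyrobp, 0.48 for Fcer1g, 0.49 for Klre1, 0.81 for Cd96 and 0.83 for Cd244a. Tyrobp lost its wild-type call without any 1 of 5 arrays, all but replicate 3 of segment 4 (adjusted p 0.0541 to 0.142), and Cd96 without replicate 1 or 3 of either segment (0.0599 to 0.0961). In knockout mice Cd96 lost its call without replicate 2 of segment 1 (adjusted p 0.0728, limma).

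Of 18 other chains and signalling proteins of the T cell receptor, 3 fell and 1 rose in knockout mice, and 0 fell and 1 rose in wild-type mice, with medians of -0.13 and -0.03 log2. These counts are near or under the shares of all genes that fell, 14.9% and 13.6%, and are no result about the list. Cd3d, the delta chain of CD3, fell by 0.90 log2 in knockout mice (adjusted p 0.014) and had -0.65 log2 in wild-type mice (adjusted p 0.0865). Txk and Zap70, kinases of the receptor pathway, fell by 0.48 log2 (adjusted p 0.00418) and by 0.51 log2 (adjusted p 0.0195) in knockout mice. Cd8b1, the CD8 beta chain, had -0.11 log2 in knockout mice (adjusted p 0.682) and -0.20 log2 in wild-type mice (adjusted p 0.445). Its means in segments 4 and 1 were 5.37 and 5.49 in knockout mice and 5.87 and 6.07 in wild-type mice. They all lay below the median gene of an array (6.11 to 6.2), where a fall may not show. With the group means taken off, r of Cd8b1 with the mean of the 8 was 0.66. Icos, a costimulator of activated T cells, rose by 0.34 log2 in knockout mice and by 0.42 log2 in wild-type mice. In knockout mice the call of Cd3d ended without replicate 1 of segment 4 or replicate 2 of segment 1 (adjusted p 0.0573 to 0.0603), that of Zap70 without either of these or replicate 1 of segment 1 (0.0519 to 0.0699), and that of Icos without replicate 2 of segment 4 (0.0949; limma).

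Of 14 genes of homing, adhesion and cytokine receptors, 3 fell and 0 rose in knockout mice, and 2 fell and 1 rose in wild-type mice, near the shares of all genes that fell (14.9% and 13.6%). Cxcr6, a chemokine receptor of resident lymphocytes, fell by 0.79 log2 in knockout mice and by 0.57 log2 in wild-type mice. Il2rb, a receptor chain for interleukins 2 and 15, fell by 0.65 log2 in knockout mice and by 0.47 log2 in wild-type mice. Ccr9, the receptor that brings lymphocytes to the small intestine, fell by 0.63 log2 in knockout mice (adjusted p 0.00865) and had -0.37 log2 in wild-type mice (adjusted p 0.137). Itgb7, the beta chain that pairs with the product of Itgae, had -0.24 log2 in knockout mice (adjusted p 0.153) and -0.02 log2 in wild-type mice (adjusted p 0.937). S1pr1, which lets lymphocytes leave tissues, rose by 1.06 log2 in wild-type mice (adjusted p 0.0169) and had 0.52 log2 in knockout mice. In wild-type mice Cxcr6 lost its call without any 1 of 4 arrays (replicates 2 and 3 of segment 4, 1 and 3 of segment 1; adjusted p 0.0645 to 0.173), and Il2rb and S1pr1 without replicate 2 or 3 of segment 4 or replicate 3 of segment 1 (0.0508 to 0.0822). Without the 2 arrays high in B cell markers, Cxcr6 (-0.45 log2, adjusted p 0.102, limma) and Il2rb (-0.44 log2, adjusted p 0.0536, limma) also missed the threshold in wild-type mice. Cxcr6 missed it too without the arrays high in other tissues (adjusted p 0.0599, limma) and with the 6 arrays of both groups alone (adjusted p 0.0512, limma). Ccr9 lost its knockout call without replicate 2 of segment 1 (0.0588; limma).

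Among 14 transcription factors of lymphocytes, 3 fell and 1 rose in knockout mice, and 2 fell and 0 rose in wild-type mice, near the shares of all genes that fell (14.9% and 13.6%). Ahr, the aryl hydrocarbon receptor, on which intraepithelial lymphocytes depend in mice and which epithelial cells also carry, fell by 1.27 log2 in knockout mice (adjusted p 7.58e-07) and by 1.1 log2 in wild-type mice (adjusted p 6.2e-06). Tbx21, which encodes T-bet, fell by 0.58 log2 in knockout mice and by 0.57 log2 in wild-type mice. Runx3 fell by 0.34 log2 in knockout mice (adjusted p 0.0264) and had -0.15 log2 in wild-type mice, and Bcl11b, a factor of T cell commitment, rose by 0.88 log2 in knockout mice and had 0.21 log2 in wild-type mice. Leaving out 1 array ended the call of Tbx21 in knockout mice (replicate 1 of segment 4, 2 or 3 of segment 1; adjusted p 0.0543 to 0.0829) and in wild-type mice (replicates 2 and 3 of both segments; 0.0811 to 0.0999), and that of Runx3 (replicates 1 and 3 of segment 4, 2 of segment 1; 0.0786 to 0.151; limma).

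Of 12 genes by which the epithelium holds and feeds these lymphocytes, 5 fell and 5 rose in knockout mice, where 30.3% of all genes passed, and 5 fell and 3 rose in wild-type mice, where 23.6% passed. Il15, the cytokine these lymphocytes need, fell by 1.5 log2 in knockout mice (SE 0.36, adjusted p 0.00287) and by 1.14 log2 in wild-type mice (SE 0.36, adjusted p 0.0248). Its means were 8.50 ± 0.52 in segment 4 and 9.997 ± 0.023 in segment 1 of knockout mice, and 8.32 ± 0.82 and 9.46 ± 0.53 in wild-type mice (SD, n = 3 each). Il18, a cytokine stored by epithelial cells, fell by 1.66 log2 in knockout mice and by 1.51 log2 in wild-type mice. Btnl2, a butyrophilin-like protein, fell by 1.27 log2 in knockout mice (SE 0.07) and by 1.00 log2 in wild-type mice (SE 0.07). Over the 24 arrays, r with the mean of the 8 was 0.48 for Il15, 0.68 for Il18 and 0.82 for Btnl2. With the group means taken off, it was -0.42 for Il15, -0.30 for Il18 and 0.21 for Btnl2.

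In the opposite direction, Cdh1, which encodes E-cadherin, rose by 0.58 log2 in knockout mice (SE 0.09, adjusted p 3.72e-05) and by 0.53 log2 in wild-type mice (SE 0.09, adjusted p 0.00011), the opposite direction to Itgae, whose product binds it. Cxadr, a junction protein and a ligand of a lymphocyte adhesion receptor, rose by 1.05 log2 in knockout mice and by 0.99 log2 in wild-type mice. Ccl25, the ligand of Ccr9, rose by 0.31 log2 in knockout mice (adjusted p 0.0143) and had 0.06 log2 in wild-type mice (adjusted p 0.703). The wild-type call of Il15 ended without any 1 of 4 arrays (replicates 1 and 2 of segment 4, 2 and 3 of segment 1; adjusted p 0.0792 to 0.165), and the knockout call of Ccl25 without replicate 1 of segment 4 or replicate 2 of segment 1 (0.0738 to 0.0975; limma). With the 6 arrays of both groups alone, the wild-type call of Il15 (adjusted p 0.104, limma) and the knockout call of Ccl25 (adjusted p 0.0589, limma) also ended. Between knockout and wild-type mice, 0 genes of these 6 lists passed limma's test in any segment or over the 4 segments.

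**Figure D5:**
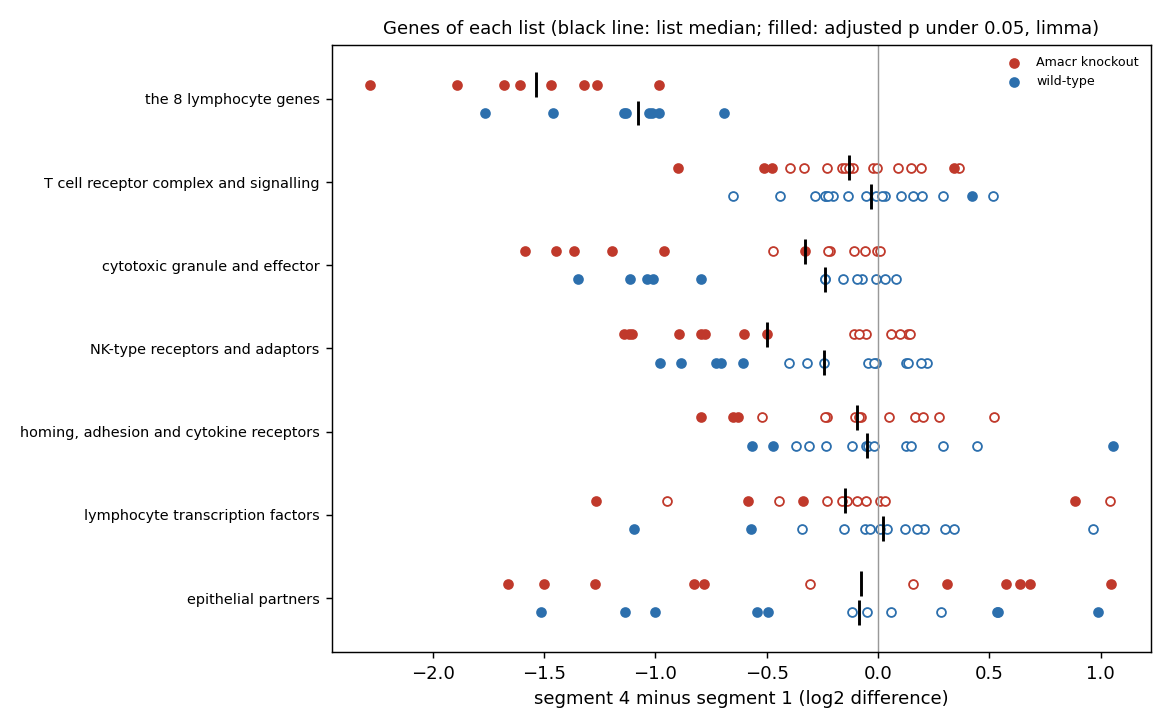
Log2 differences between segments 4 and 1 (segment 4 minus segment 1) of the 8 lymphocyte genes and of the 6 further lists, knockout above wild-type in each list; filled points have an adjusted p under 0.05 (limma) and black lines are list medians. The medians of the 8 genes lie furthest to the left, at -1.54 in knockout mice and -1.08 in wild-type mice, while the medians of the 6 lists lie between -0.50 and 0.02.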

How the data were processed

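The intestines were rinsed with saline (0.85% NaCl) and opened, and total RNA of the scraped layer was labelled with biotin for one-colour arrays, per the labels' protocols. The deposited values are log2 values, and the submitters' processing notes name RMA as the authors' tool; its version and the base of the logarithm are not given in the sources used here, and log2 is what RMA returns. RMA removes background, gives all arrays 1 distribution and reduces the probes for a gene to 1 value, so levels compare between arrays and not between genes, and a difference in the total RNA of a cell is not kept. Array medians were 6.11 to 6.2 over the genes compared, arrays of a group correlated at 0.979 to 0.995, and 0 pairs were identical. Columns that match no sample numbered 0, and all 24 samples had a column.

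Among the 16556 probe sets, 15270 pair with 1 gene in the platform annotation; for 3 genes with 2 probe sets, only the probe set of higher mean was used, giving 15267 genes with no filter on dim genes. The tests used limma 3.58.1 (R 4.3.3): lmFit and eBayes were run over the 24 arrays, fitting 8 group means (16 residual degrees of freedom, prior 3.35), and for the intestine as a whole on 6 means, 1 per genotype and replicate number (4 residual degrees of freedom). P-values were adjusted by Benjamini-Hochberg over all genes, with calls at 0.05, for 18 comparisons: 5 of genotype, 12 of segments and the interaction. Beside the 8 genes the text names, of each further list, up to 4 genes past the threshold with the largest changes, some genes of known role whether past it or not, and the 10 genes most like the mean of the 8. The 8 genes, the lists and the motifs were chosen with earlier results of these data known. Listed genes without a probe set were not analysed here, and protein sequences were not used. The steps were tested on simulated data with 200 of 15267 genes changed. Genes and arrays were drawn independently there, whereas the 8 genes here moved together. Of changes of 0.5 log2, 59.7% were called between genotypes in segment 1 and 82.1% over the 4 segments. For segment 4 against 1 it was 55.2% in knockout and 40.3% in wild-type mice, and for the interaction 25.4%. Of changes of 1 log2, 71.6% were called for the interaction and 91% or more in the others. Alternatives were median centring, a filter on dim genes, eBayes with trend and robust, replicate blocks, the arrays of both groups alone, each replicate left out, and arrays high in markers of other tissues left out; leaving out those high in B cell markers was added after the data were seen.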

Additional observations from a re-analysis of the deposited data

How the results depend on the processing

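Between knockout and wild-type mice, 0 of the 8 passed in all 69 combinations of comparison and setting, and for the interaction in all 12. Between segments 4 and 1 in knockout mice, 8 passed under all 13 settings. In wild-type mice it was 8 under every setting but single arrays left out, which gave 4 to 8, with 4 without replicate 3 of segment 4. The counts of shorter distances turned with the setting, in 45 of 156 cases. Of 1800 combinations of a difference of the 8 genes and a setting, 82 changed sign, 0 of them of a difference that had passed, mostly in segment 4 against 3 (16 in knockout mice and 20 in wild-type mice) and between genotypes in segment 3 (23).

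In knockout mice, segment 2 against 1 gave 2 calls, but 1 without the arrays high in other tissues, 4 without those high in B cell markers, and 0 to 2 with 1 array left out. Klrd1 missed the threshold there without the arrays high in other tissues (adjusted p 0.0542, limma). The 6 arrays of both groups alone also gave 2 calls, but neither Klrd1 (adjusted p 0.0819) nor Cd3e (adjusted p 0.118) was among them (limma). Segment 3 against 1 gave 8 calls, but 4 with the 6 arrays of both groups alone and 4 to 8 with 1 left out. The difference of Cd3g there was -1.71 log2 without the arrays high in other tissues, against -1.1. Segment 3 against 2 gave 1 call, but 0 with the 6 arrays alone and 0 to 1 with 1 left out. Segment 4 against 2 gave 2 calls, but 4 with median centring, with the filter on dim genes and without the arrays high in B cell markers, 3 with the 6 arrays alone, 1 with trend and robust and without the arrays high in other tissues, and 1 to 4 with 1 left out. In wild-type mice, segment 3 against 1 gave 7 calls, 6 to 8 under the other settings and 2 to 8 with 1 array left out. Segment 3 against 2 gave 0 calls, but 1 without either set of high arrays. Segment 4 against 2 gave 2 calls, but 4 with median centring, 3 with the filter on dim genes, 6 without the arrays high in other tissues, 1 with trend and robust, without the arrays high in B cell markers and with the 6 arrays alone, and 1 to 3 with 1 left out. Apart from the replicate block, settings not named for a comparison left its count as it was. The causes were not tested.

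Pairing by replicate number was checked over all genes, by correlating the deviations of samples from their group means. Samples of a genotype with 1 number correlated at -0.29 to 0.52 (36 pairs, median 0.06, 15 over 0.1). Those of a genotype with another number and segment correlated at -0.51 to 0.48 (72 pairs, median -0.07, 18 over 0.1). The ranges overlap, so the check does not settle whether a number marks 1 mouse. The main tests of segments did not take the numbers as pairs. With the replicate block the counts for segments 2 against 1 in knockout mice and 4 against 2 in both genotypes were 5, the calls of segment 4 against 1 stayed at 8 in both, and 0 passed between genotypes.

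Over all genes, calls between genotypes in segments 1, 2, 3 and 4 numbered 17, 11, 4 and 10, and 0 to 32, 0 to 28, 0 to 10 and 3 to 17 over the settings. For the mean of 4 segments there were 4, and 0 to 223, the highest with the mean of 4 contrasts on 24 arrays. The interaction had 0, and 3 at most. Between neighbouring segments in knockout mice, 552, 858 and 540 became 138 to 789, 194 to 1186 and 276 to 693, and in wild-type mice 135, 314 and 687 became 52 to 184, 119 to 481 and 215 to 947. For segment 3 against 1 in wild-type mice, 2428 became 1261 to 2970.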
